A study of Mus musculus with 12 samples.

Results

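Stromal fibroblast and pericyte marker genes were followed across 12 RNA sequencing libraries of mouse mammary tumour organoids: the platelet-derived growth factor (PDGF) receptors Pdgfra and Pdgfrb, the matrix genes Dcn, Lum, Bgn and Mfap4, the matricellular genes Postn and Sparc, and the mural cell genes Rgs5 and Cspg4. These 10 genes were taken by symbol from the 25860 genes of the deposited count table, and 10 of 10 had enough counts to be tested among the 17024 genes that passed the filter on low counts. The organoids came from primary tumours of the MMTV-Neu mouse, where the oncogene Neu (Erbb2) is driven in mammary epithelium by a viral promoter, and the libraries are labelled as primary epithelial cells. A lentivirus, given at an MOI (infectious particles per cell) of 20, delivered a non-targeting hairpin (shControl, genotype WT, here the control) or 1 of 2 hairpins against the tight junction gene Cldn7 (sh1Cldn7 and sh2Cldn7, here hairpin 1 and hairpin 2). Selection used puromycin at 3 µg/ml for 3 days, the medium held 2.5 nM FGF2, and RNA was taken after 5 days in a collagen matrix; all 3 groups shared these conditions. Each group held 4 libraries, numbered 1 to 4 in the titles. The study asked what Cldn7 does in invasion and metastasis.

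Fibroblasts make and organise the fibrous matrix of the mammary gland, and pericytes are contractile cells that wrap small vessels. Both carry PDGF receptors, which bind PDGF ligands made by neighbouring epithelial and endothelial cells and drive growth and migration of mesenchymal cells. None of these genes is strictly confined to stroma: tumour epithelium can make matrix proteins such as periostin and SPARC, and Cspg4 is also found on other progenitor-like cells. In RNA from whole organoids, fewer cells of a type and less RNA per cell cannot be told apart.

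Cldn7 itself, the targeted gene, was lower with either hairpin in every replicate number. It lay at 101 to 186 CPM (the read count relative to its library's total, after edgeR's TMM scaling) in the control libraries, at 29.0 to 44.3 with hairpin 1 and at 25.4 to 34.7 with hairpin 2, so that the groups did not overlap. Total counts were 34983136 to 44640223 in replicates 1 and 2 and 68568321 to 76319629 in replicates 3 and 4, and the first principal component, with 70.8% of the variance, separated replicates 1 and 2 from replicates 3 and 4. Comparisons below are therefore made within replicate numbers, with the number as a term of the model, as the choice of these genes asked. Epithelial genes were read in every library: Epcam, an epithelial adhesion molecule, lay at 802 to 1857 CPM. The luminal keratin gene Krt18 lay at 386 to 435 CPM in the replicate 4 libraries and at 745 to 1305 in the others. Fibroblast genes were high in replicate 4 as well. There, 10 luminal markers summed to 9639 CPM in the control, 8185 with hairpin 1 and 8729 with hairpin 2. The sums of 20 fibroblast markers besides the genes followed here were 6726, 8684 and 13290.

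Promoter sequence was drawn from RefSeq (GRCm38.p6), which had an entry for 6 of the 10 genes. The windows of Bgn and Postn, the 200 bases before the start site, are shown because both genes rose with hairpin 2 and their windows hold no annotated exon. For Postn, which has a pair of entries, the window nearer to the annotated gene start is given. The Bgn window is chrX:73483401-73483600 on the plus strand, with 67.0% G or C, and the Postn window is chr3:54360907-54361106 on the plus strand, with 55.5% G or C. Capitals mark matches to a GC box in Bgn and to a TATA box in Postn, and overlapping matches run together:
Bgn: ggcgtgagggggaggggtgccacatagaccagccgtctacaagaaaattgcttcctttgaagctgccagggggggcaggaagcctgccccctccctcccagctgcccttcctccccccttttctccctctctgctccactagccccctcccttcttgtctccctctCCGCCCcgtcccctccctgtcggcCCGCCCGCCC
Postn: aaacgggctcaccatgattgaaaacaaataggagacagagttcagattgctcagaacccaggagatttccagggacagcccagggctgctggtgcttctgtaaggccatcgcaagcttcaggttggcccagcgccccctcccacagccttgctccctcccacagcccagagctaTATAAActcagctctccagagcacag
Both strands were searched. Bgn held 3 matches to the GC box, spelled GGGCGG, each in the reverse complement of the letters printed, and 31.0% of 32851 promoters of the same length hold one. Postn held 1 match to the TATA box, spelled TATAAA, which 9.96% of them hold. Neither window held a match to the AP-1 motif TGANTCA (5.48% of promoters), to the TEAD motif CATTCC (10.1%) or to the CArG box bound by serum response factor (1.18%). Bgn also held 1 match to the E-box CANNTG, not marked above, which 58.2% of promoters hold, and Postn held none. These are matches of letters within the windows and say nothing of binding.

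Levels per gene length in the control placed the matricellular genes first. Per kilobase of annotated exon, the mean CPM of the 4 control libraries was 150 for Postn, 112 for Sparc, 54.9 for Bgn, 10.9 for Lum, 7.33 for Pdgfrb, 3.72 for Dcn, 3.62 for Pdgfra, 2.81 for Mfap4, 1.07 for Cspg4 and 0.121 for Rgs5. The ranges of neighbours in this order overlapped across the control libraries, except Cspg4 and Rgs5. Within each of the 4 control libraries Sparc lay above Bgn, Bgn above Lum and Cspg4 above Rgs5. The order of each other pair of neighbours turned in at least 1 of them. Postn, for example, spanned 69.6 to 263 CPM per kilobase and Sparc 26.6 to 171, while Lum spanned 0.590 to 32.5 and Pdgfrb 1.32 to 22.5. Rgs5 at 0.0822 to 0.157 lay below every control library of the other 9 genes except the replicate 2 library of Mfap4 (0.117).

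The receptor genes were highest in the replicate 4 libraries of all 3 groups. Pdgfra (mouse chromosome 5, 75152292 to 75198215 on GRCm38) encodes the PDGF receptor that marks most fibroblasts. From replicate 1 to 4 it read 27.6, 22.5, 19.5 and 75.5 CPM in the control, 29.3, 24.9, 23.1 and 116 with hairpin 1, and 30.9, 23.2, 31.3 and 127 with hairpin 2. The replicate 4 libraries stood above the other 9 libraries, while the ranges of the groups overlapped. The annotation places exons of Gm42802 and Gm42803 on the opposite strand, and of Mir7025 on the same strand, over exons of Pdgfra; the strand setting of the counting is not given in the sources used here, so reads of these genes cannot be told apart.

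Pdgfrb (chromosome 18, 61045150 to 61085061) encodes the receptor typical of pericytes and activated fibroblasts. Its control libraries read 19.3, 7.25, 10.8 and 123 CPM in replicates 1 to 4. With hairpin 1 the values were 15.6, 9.69, 15.0 and 169, and with hairpin 2 they were 24.9, 11.2, 19.9 and 218. Replicate 4 was again far above the others in each group, and within every replicate number the hairpin 2 library exceeded its control. The patterns of the 2 receptor genes were close, with a Pearson correlation of 0.980 between log2 CPM values over the 12 libraries. These libraries are grouped by replicate number, and their depth differed between replicates 1 and 2 and replicates 3 and 4.

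The summed PDGF ligands did not follow the receptors. Their summed level was 105 to 139 CPM over the 12 libraries, and the replicate 4 libraries lay at 1.07 times the mean of the other 9. For 1 of the 4 ligand genes the 3 replicate 4 libraries lay above the other 9, as they did for 14.3% of all genes tested. Among the 4 ligand genes, 1 passed with hairpin 2, beside 5.76% of all genes. Pdgfd, which encodes a ligand that binds mainly the beta receptor, fell with hairpin 2, from 6.39, 3.57, 5.85 and 4.76 CPM in the control to 3.10, 1.69, 2.19 and 2.34 in replicates 1 to 4. Its log2 fold change was -1.14 (SE 0.15; edgeR adjusted p = 0.00325) with hairpin 2 and -0.21 (SE 0.14; edgeR adjusted p = 0.604) with hairpin 1. The difference between the hairpins passed as well (-0.93, SE 0.15; edgeR adjusted p = 0.00964). Pdgfa, Pdgfb and Pdgfc were at 0.24, 0.43 and 0.08 with hairpin 2 and did not pass.

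The small leucine-rich proteoglycans Bgn, Dcn and Lum, which bind collagen fibrils and growth factors, spanned wide ranges. Bgn (chromosome X, 73483602 to 73495933) encodes biglycan. Its control libraries read 269, 125, 90.5 and 855 CPM in replicates 1 to 4. With hairpin 1 it read 264, 196, 140 and 1367, and with hairpin 2 377, 242, 260 and 1631. Each hairpin 2 library was above the control of its number, and the replicate 4 libraries stood above the other 9.

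Dcn (chromosome 10, 97479609 to 97518143) encodes decorin. It was lowest in replicate 3, at 1.03 CPM in the control, 0.832 with hairpin 1 and 2.77 with hairpin 2. In replicates 1, 2 and 4 it read 14.4, 14.8 and 56.6 in the control, 11, 19.6 and 74.2 with hairpin 1, and 26.6, 25.8 and 117 with hairpin 2. Hairpin 2 was above the control in 4 of 4 replicate numbers and hairpin 1 in 2 of 4.

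Lum (chromosome 10, 97565128 to 97572703), next to Dcn, encodes lumican. Its replicates 1 to 4 read 19.7, 6.16, 1.44 and 79.6 CPM in the control, 8.44, 6.48, 0.431 and 87.2 with hairpin 1, and 26.7, 4.75, 2.08 and 138 with hairpin 2. No group stood apart, and the pairs of one replicate number went in both directions.

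Mfap4 (chromosome 11, 61485431 to 61488900) encodes a protein of elastic microfibrils. It read 2.94, 0.225, 0.322 and 18.1 CPM in the control, 1.28, 0.143, 0.535 and 14.7 with hairpin 1, and 3.16, 1.69, 2.13 and 60.7 with hairpin 2. The lowest values rest on few reads, 8 in the control and 5 with hairpin 1 in replicate 2. Its exons overlap those of Mapk7 on the opposite strand, so their reads cannot be told apart here either. Hairpin 2 exceeded the control in 4 of 4 replicate numbers, by little in replicate 1 and by several fold in the others.

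The matricellular genes were abundant in every library. Postn (chromosome 3, 54361109 to 54391037) encodes periostin, a secreted protein of remodelling matrix. It read 661, 1675, 606 and 2291 CPM in the control, 902, 1932, 716 and 2996 with hairpin 1, and 1023, 2328, 2100 and 5201 with hairpin 2. Within each replicate number the order was control, hairpin 1, hairpin 2.

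Sparc (chromosome 11, 55394500 to 55423183, minus strand) encodes a collagen-binding matrix protein. It read 404, 649, 101 and 537 CPM in the control, 396, 893, 127 and 787 with hairpin 1, and 510, 933, 261 and 992 with hairpin 2. Replicate 3 was the lowest number in each group, and replicate 2 lay near replicate 4.

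The mural cell genes were lower. Cspg4 (chromosome 9, 56865033 to 56899870) encodes the membrane proteoglycan NG2 of pericytes. It read 9.33, 7.51, 5.68 and 28.8 CPM in the control, 13.2, 8.43, 11.3 and 34.3 with hairpin 1, and 18.6, 7.55, 15.1 and 41.4 with hairpin 2. In replicate 2 the hairpin 2 library was hardly above its control. Rgs5 (chromosome 1, 169655501 to 169695813), a regulator of G protein signalling that is a classical pericyte marker, read 0.374, 0.450, 0.660 and 0.713 CPM in the control. It read 0.773, 0.774, 1.63 and 1.64 with hairpin 1 and 0.790, 0.800, 0.83 and 2.97 with hairpin 2. The control libraries of Rgs5 all lay below its hairpin libraries, narrowly, at 0.713 against 0.773 CPM where they came closest. Its control values rest on few reads, 13 to 52. The share of all genes with such a separation was not counted.

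**Figure D1:**
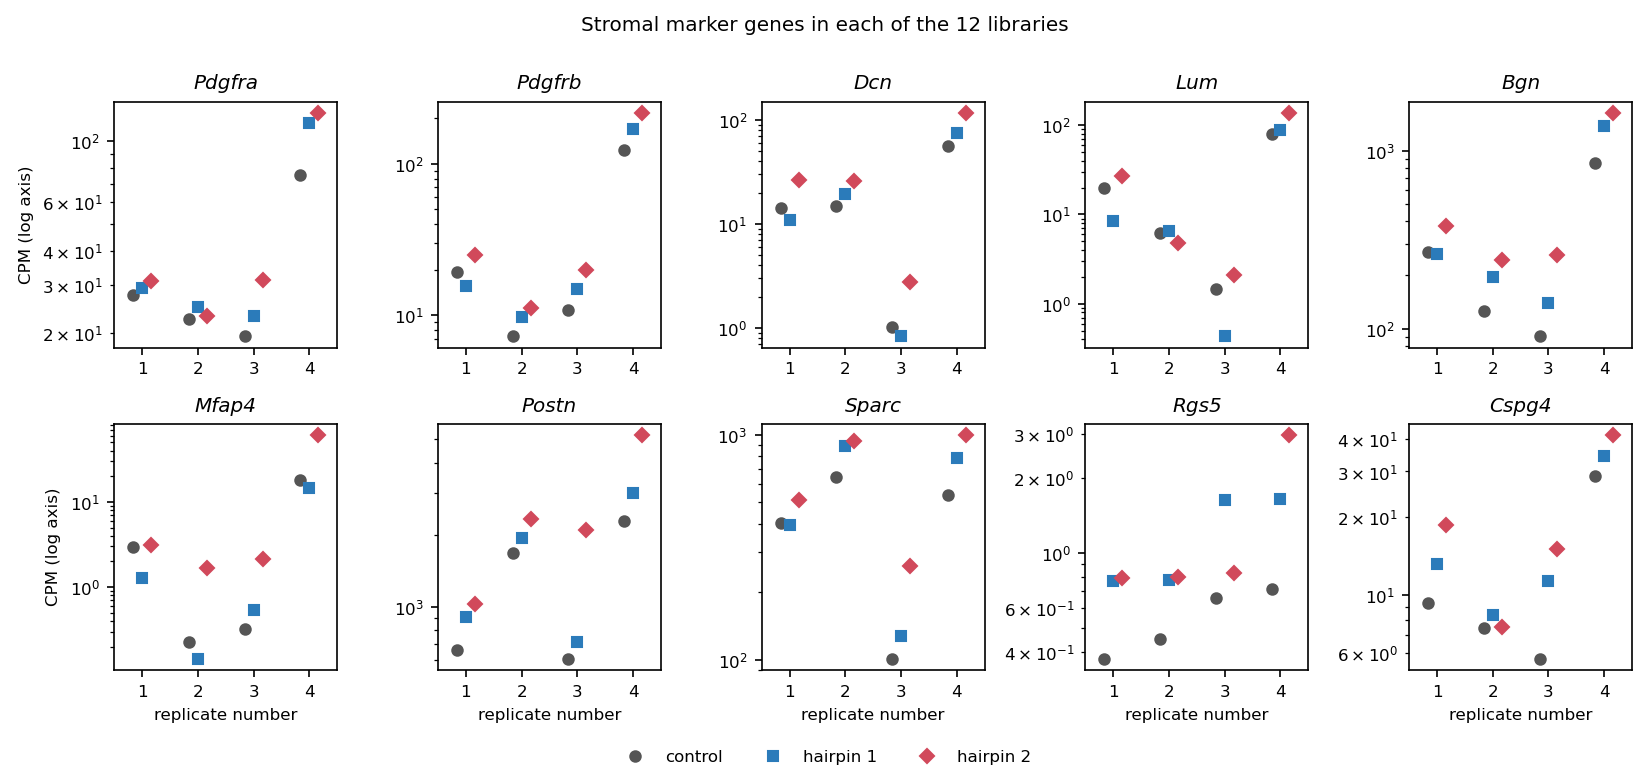
CPM on a log axis (vertical) against the replicate number (horizontal) for each of the 10 genes; each point is 1 library, with the control as circles, hairpin 1 as squares and hairpin 2 as diamonds. The replicate 4 libraries stand above the other 9 for 7 genes, and the hairpin 2 library of replicate 4 is the highest point of every panel.

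Single libraries carried much of each marker. At equal levels the 3 replicate 4 libraries would hold 25% of the CPM summed over 12 libraries. They held 88.3% of Mfap4, 80.0% of Lum, 79.2% of Pdgfrb, 68.0% of Dcn, 66.2% of Bgn, 57.8% of Pdgfra, 51.9% of Cspg4, 46.8% of Postn, 42.9% of Rgs5 and 35.2% of Sparc. The median over the 10 genes was 62.0%, beside 24.4% over all genes tested. Replicate 3 held 1.27% of Dcn and 1.04% of Lum, and for Sparc replicate 2 held 37.6%, more than replicate 4.

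One library stood out among the 12, hairpin 2 replicate 4, which had the highest value of all 10 genes. At equal levels it would hold 8.33%. It held 57.3% of Mfap4, 36.2% of Lum, 33.8% of Pdgfrb, 32.1% of Dcn and 28.0% of Bgn, and between 15.1% (Sparc) and 23.9% (Rgs5) of the other 5. The mean of the 3 replicate 4 libraries was 22.6 times that of the other 9 for Mfap4, 12 times for Lum, 11.4 times for Pdgfrb, 6.37 times for Dcn and 5.89 times for Bgn. It was 4.12 times for Pdgfra, 3.24 for Cspg4, 2.63 for Postn, 2.25 for Rgs5 and 1.63 for Sparc. For 7 of 10 genes, all but Postn, Sparc and Rgs5, the 3 replicate 4 libraries lay above the other 9, as they did for 14.3% of all genes tested, a criterion chosen after these values were seen.

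**Figure D2:**
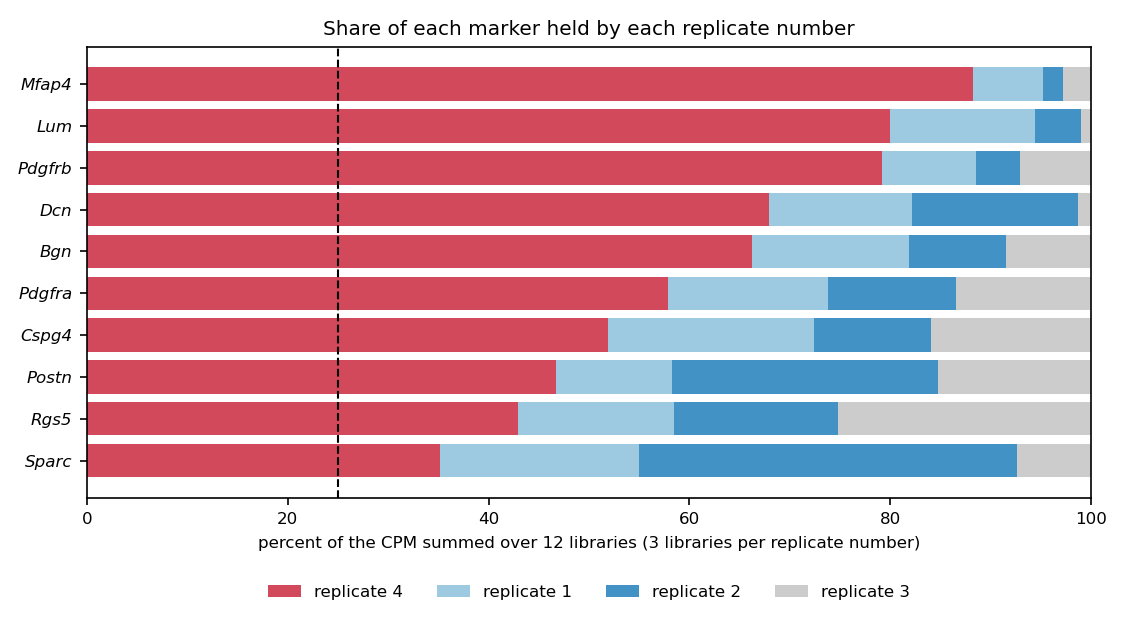
Percent of the CPM summed over 12 libraries (horizontal) held by each replicate number, 3 libraries each, for the 10 genes (vertical); the dashed line marks 25%, the share at equal levels. Replicate 4 holds from 35.2% of Sparc to 88.3% of Mfap4.

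The replicate number passed a test of its own for 10 of 10 genes (edgeR quasi-likelihood F test with the groups in the model, with Benjamini-Hochberg adjustment over all genes), as it did for 76.3% of all genes. The widest gap between replicate numbers was 6.32 on the log2 scale for Lum, 5.80 for Dcn, 5.60 for Mfap4, 4.17 for Pdgfrb and 3.04 for Bgn. It was 2.43 for Sparc, 2.14 for Pdgfra, 2.13 for Cspg4, 1.94 for Postn and 1.38 for Rgs5, with edgeR adjusted p from 1.94e-09 for Pdgfrb to 0.0184 for Rgs5. Without replicate 4, 7 of 10 passed beside 55.1% of all genes, and Cspg4 (edgeR adjusted p = 0.0611), Pdgfra (0.100) and Rgs5 (0.219) did not. The labels do not say what the replicate number stands for, and what it carries was not tested.

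Other markers of fibroblasts were high in the same libraries. Summed endothelial and adipocyte markers were also higher there, at low levels, and markers of most other cell types were not. Of 20 further fibroblast markers, 16 had their 3 replicate 4 libraries above the other 9, and their summed level was 6726 to 13290 CPM in replicate 4 against 722 to 3084 in the others. The fibrillar collagen Col3a1 read 1075, 1471 and 2412 CPM in replicate 4 and 30.4 to 132 in the other 9 libraries. Of 8 further small leucine-rich proteoglycans 4 did so, with a summed level 3.25 times that of the other libraries.

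Of 14 further pericyte markers 4 did so, and their summed level in replicate 4 was 1.28 times that of the other 9. Among the genes most typical of pericytes the levels differed. Kcnj8 and Abcc9, the subunits of a potassium channel, had control means of 4.01 and 3.58 CPM, while the control means were 0.036 for Higd1b, 0.050 for Vtn, 0.238 for Gja4 and 0.263 for Cox4i2. Notch3 and Mcam, which pericytes share with other cells, had control means of 157 and 63.8 CPM. Summed endothelial markers were 48.4 to 85.4 CPM in replicate 4 and 18.3 to 34.9 in the others, 2.47 times as high. Of the 14 genes, 1 lay above throughout. The endothelial adhesion gene Pecam1 was not higher there, at 0.795 to 1.17 CPM in replicate 4 and 0.906 to 2.61 in the others. None of the listed genes was at 0 in all libraries.

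Against this, the replicate 4 level was 0.621 times that of the others for 12 macrophage markers, 0.183 times for 10 lymphocyte markers, 0.795 times for 10 contractile genes, 0.725 times for 10 basal markers, 0.999 times for 10 luminal markers and 0.920 times for 6 Schwann cell markers. Other matricellular genes, 13 relatives of Postn and Sparc in function, were at 0.886 times, although 5 of them had their 3 replicate 4 libraries above the other 9. The luminal sum includes the oncogene Erbb2, at 5218 to 6549 CPM in replicate 4 and 2583 to 5269 in the other libraries. The luminal keratin gene Krt8 read 603 to 641 CPM in replicate 4 and 1073 to 1324 in the others, and Krt18 was lower there too. The replicate 4 ranges of Epcam and Cdh1 overlapped those of the others. Adipocyte markers (6 genes) were at 2.03 times, at summed levels of 1.77 to 10.1 CPM. The macrophage and lymphocyte lists were low in replicate 3 as well as in replicate 4. Summed macrophage markers were 248 to 375 CPM in replicates 1 and 2, 158 to 294 in replicate 3 and 148 to 180 in replicate 4. The leukocyte gene Ptprc read 2.18 to 9.21 CPM in replicates 1 and 2, 0 to 0.0765 in replicate 3 and 0.0411 to 0.179 in replicate 4. The part of these cell types in the values of the 10 genes was not tested.

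**Figure D3:**
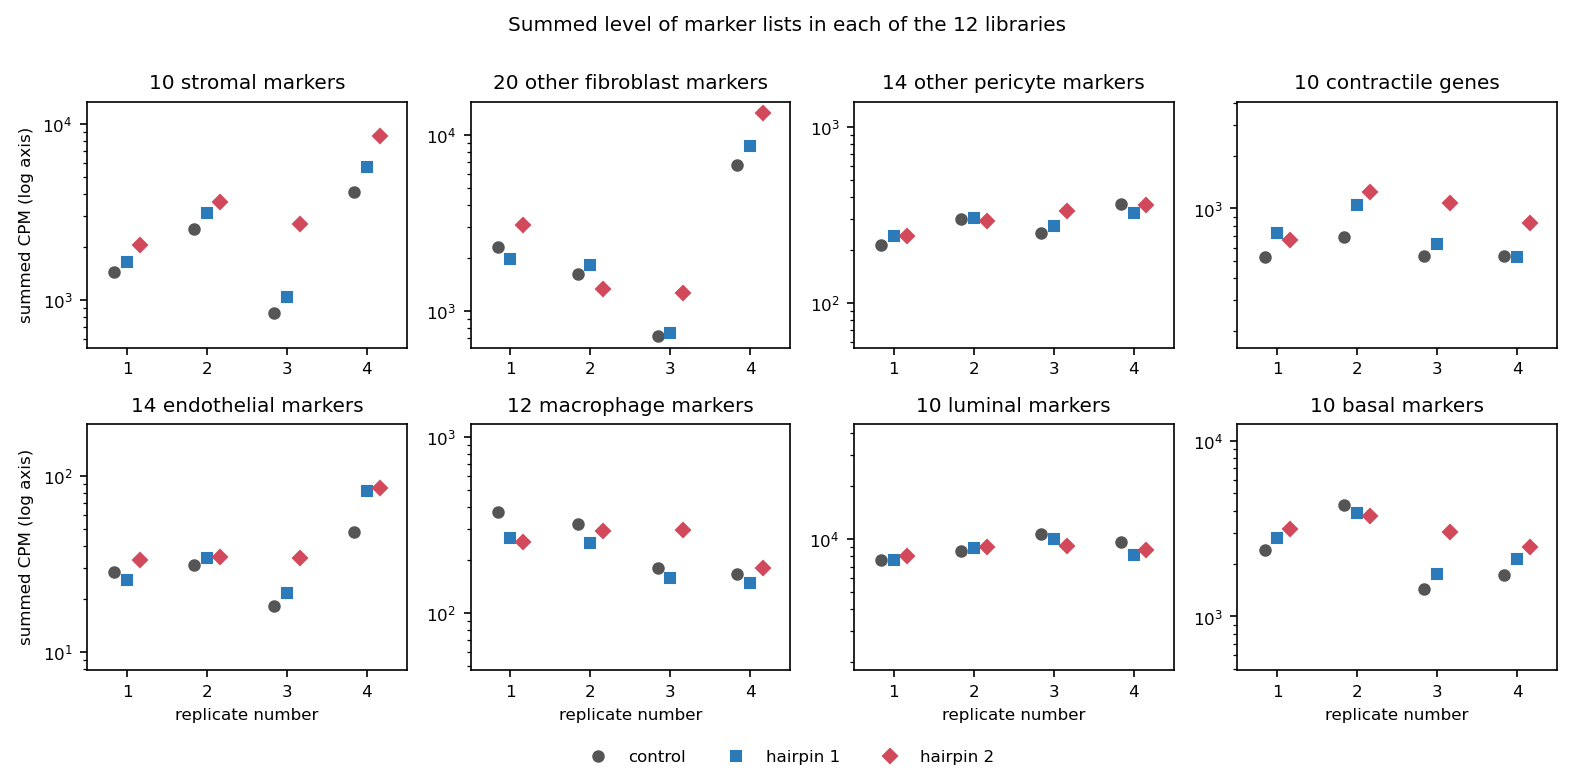
Summed CPM on a log axis (vertical) against the replicate number (horizontal) for the 10 stromal genes and 7 other lists, 1 point per library. The further fibroblast markers rise to 6726 to 13290 CPM in replicate 4, while the luminal and contractile lists stay within the range of the other libraries. The luminal sum includes Erbb2, at 5218 to 6549 CPM in replicate 4.

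With hairpin 2, 7 of the 10 genes rose within replicate numbers and 0 fell, beside 5.76% of all genes called in either direction and 2.83% higher. The log2 fold change was 1.64 for Mfap4 (SE 0.37; edgeR adjusted p = 0.0306), 1.05 for Postn (SE 0.21; 0.0191), 1.02 for Dcn (SE 0.17; 0.0113) and 0.97 for Bgn (SE 0.15; 0.00708). It was 0.79 for Sparc (SE 0.16; edgeR adjusted p = 0.0212), 0.74 for Cspg4 (SE 0.18; 0.0405) and 0.67 for Pdgfrb (SE 0.11; 0.0110). Rgs5 at 1.15 (SE 0.34; edgeR adjusted p = 0.0793), Pdgfra at 0.42 (SE 0.12; 0.0651) and Lum at 0.41 (SE 0.31, 95% interval -0.28 to 1.10; 0.481) did not pass. The median of the 10 genes was 0.88, beside 0.0044 over all genes. All genes except Lum (3 of 4) were higher in 4 of 4 replicate numbers, as were 12.5% of all genes. The largest same-number log2 difference lay in replicate 3 for Postn (1.79), Bgn (1.52), Cspg4 (1.41), Dcn (1.40), Sparc (1.38) and Pdgfrb (0.88). It lay in replicate 2 for Mfap4 (2.72) and in replicate 4 for Rgs5 (2.00), Lum (0.79) and Pdgfra (0.75). Summed over the 10 genes, the replicate 3 libraries read 837 CPM in the control, 1035 with hairpin 1 and 2695 with hairpin 2.

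How far these calls rested on single libraries differed by gene. Bgn, Dcn and Pdgfrb passed with any 1 of the 12 libraries left out. Sparc passed in 9 of 12 such fits and missed without control replicate 3 (edgeR adjusted p = 0.0800), control replicate 4 (0.0646) or hairpin 2 replicate 4 (0.0591). Postn passed in 8 of 12 and missed without control replicate 1 (0.0547), 3 (0.0753) or 4 (0.0578) or hairpin 2 replicate 4 (0.0600; all edgeR adjusted p).

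Mfap4 passed in 6 of 12, with log2 fold changes from 1.37 to 2.13 across these fits. The call was lost when control replicate 2, 3 or 4, replicate 1 of hairpin 1, or replicate 3 or 4 of hairpin 2 was dropped (edgeR adjusted p = 0.0503 to 0.0993). Cspg4 passed in 2 of 12, without control replicate 2 or hairpin 2 replicate 2, and missed without any other library, with edgeR adjusted p up to 0.129. In the other direction, Pdgfra passed without control replicate 2 (0.0448) or hairpin 2 replicate 2 (0.0308), and Rgs5 without hairpin 2 replicate 3 (0.0339; all edgeR adjusted p).

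All calls were lost without replicate 4, and some were lost without replicate 1, 2 or 3. Most fold changes stayed near their size without replicate 4. Without replicate 4 of all groups, 0 of 10 genes passed for hairpin 2, beside 1.13% of all genes, while 8 of 10 had an unadjusted p under 0.05, beside 19.8% of all genes. Without replicate 1, 2 or 3 of all groups, 5, 6 and 4 of 10 passed, beside 1.22%, 4.81% and 2.65% of all genes. The median log2 fold change in these fits was 1.01, 0.97 and 0.69. The median log2 fold change without replicate 4 was 0.79, with 0.98 for Bgn (edgeR adjusted p = 0.0570), 1.03 for Dcn (0.0784), 1.77 for Mfap4 (0.162), 1.01 for Postn (0.109) and 0.62 for Pdgfrb (0.102). The fit without replicate 4 has 9 libraries, and all 10 genes kept a positive sign, from 0.27 for Lum to 1.77 for Mfap4. Rgs5 moved most, from 1.15 to 0.74. In a fit of the control and hairpin 2 libraries alone, 2 of 10 passed (Dcn and Pdgfrb) beside 0.588% of all genes, with a median of 0.87. Without the replicate number in the model, 0 of 10 passed for hairpin 2, beside 0.00587% of all genes, and 1 of 10 had an unadjusted p under 0.05, beside 3.56%.

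The hairpin 2 values were larger in replicates 3 and 4 than in replicates 1 and 2. In replicates 3 and 4 alone, 6 of 10 genes passed, beside 1.98% of all genes, with a median of 1.2. They were Mfap4 (2.04), Postn (1.53), Bgn (1.26), Sparc (1.16), Pdgfrb (0.87) and Pdgfra (0.74). In replicates 1 and 2 alone 1 of 10 passed, Postn (0.55; edgeR adjusted p = 0.0486), beside 0.494% of all genes, with a median of 0.53. The difference of the hairpin effect between these 2 pairs of replicate numbers was taken over both hairpins, not hairpin 2 alone. This difference was positive for 10 of 10 genes, from 0.27 to 1.01 on the log2 scale, beside 8167 of the 17024 genes tested. It passed for 0 of 17024 genes (0.0%) by edgeR, 1033 of which (6.07%) had an unadjusted p under 0.05, among them 4 of the 10. For Pdgfra it was 0.47 (SE 0.13; edgeR adjusted p = 0.549). The sign of this difference turned for Dcn, Lum, Mfap4, Rgs5 and Cspg4 in some fits with 1 library left out.

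**Figure D4:**
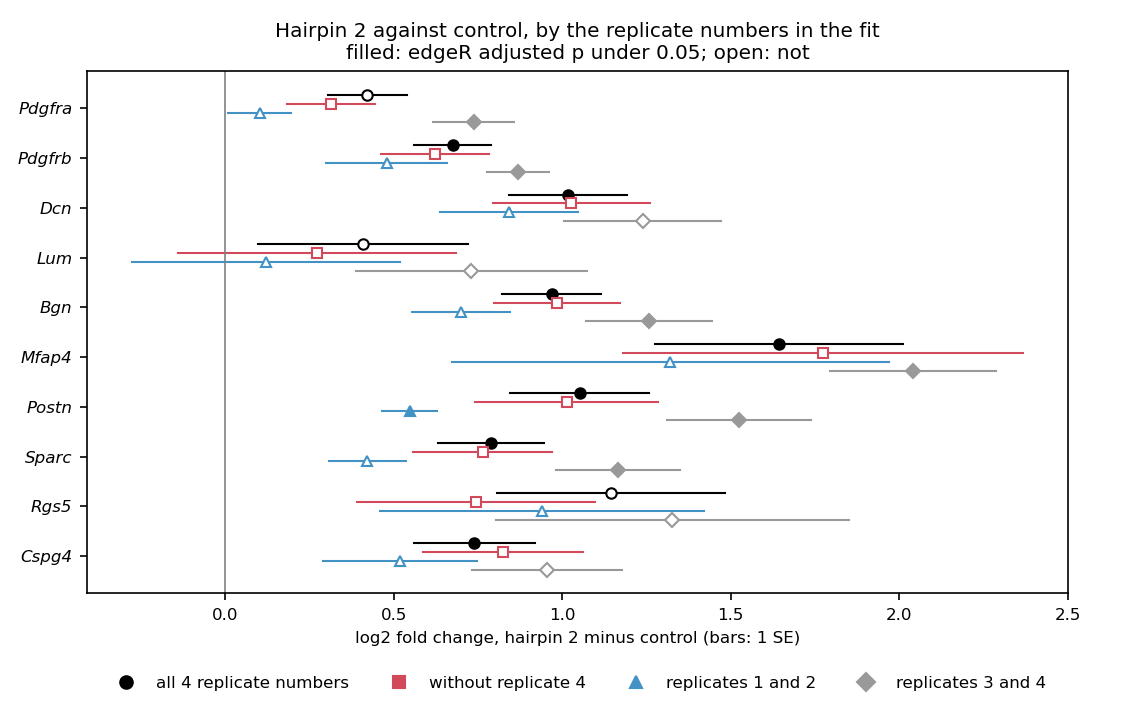
Log2 fold change of hairpin 2 against the control (horizontal, bars 1 SE) for the 10 genes (vertical), fitted with all 4 replicate numbers, without replicate 4, with replicates 1 and 2, or with replicates 3 and 4; filled symbols have an edgeR adjusted p under 0.05. The fits without replicate 4 lie close to those with it for most genes but have open symbols, and 1 gene, Postn, is filled in replicates 1 and 2.

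With hairpin 1, 0 of 10 genes passed by edgeR's quasi-likelihood test, beside 0.728% of all genes, and 5 of 10 had an unadjusted p under 0.05, beside 12.8%. DESeq2 with the same terms called 1 of 10, Bgn, beside 3.57% of all genes. For hairpin 2 DESeq2 called 9 of 10 beside 10.9% of all genes, for both hairpins 8 beside 6.73%, and between the hairpins 6 beside 8.44%. The largest log2 fold changes were 1.11 for Rgs5 (edgeR adjusted p = 0.187) and 0.47 for Bgn (0.196), and the median was 0.30. Bgn passed when hairpin 2 replicate 3 was left out (0.48; edgeR adjusted p = 0.0498), beside 2.02% of all genes. Lum at -0.46 and Mfap4 at -0.43 were below 0 and did not pass. Their pairs went in both directions: Lum was lower in replicates 1 and 3 and Mfap4 in replicates 1, 2 and 4.

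The hairpins were also compared with each other. Mfap4 (2.07, SE 0.37; edgeR adjusted p = 0.0178) and Dcn (0.91, SE 0.17; 0.0221) were higher with hairpin 2 than with hairpin 1, so 2 of 10 passed beside 3.44% of all genes (1.57% higher). The other 8 did not pass, from 0.03 for Rgs5 to 0.86 for Lum (edgeR adjusted p = 0.168), so the test of the difference passed for Mfap4 and Dcn. In a fit of the hairpin libraries alone, Mfap4 and Pdgfrb (0.41; edgeR adjusted p = 0.0424) passed, beside 3.06% of all genes, and Dcn did not (0.0533). Without replicate 4 of all groups 0 of 10 passed by edgeR, beside 0.962% of all genes, and 7 of 10 had an unadjusted p under 0.05, beside 16.4%. Pdgfrb (0.0271) and Bgn (0.0492) passed without control replicate 1. The Dcn call was lost without hairpin 1 replicate 1 (edgeR adjusted p = 0.0848) or 3 (0.0664), or hairpin 2 replicate 1 (0.0757) or 4 (0.0552). The Mfap4 call was lost without any 1 of the 4 hairpin 1 libraries (0.0589 to 0.0849) or hairpin 2 replicate 4 (0.0638; all edgeR adjusted p).

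**Figure D5:**
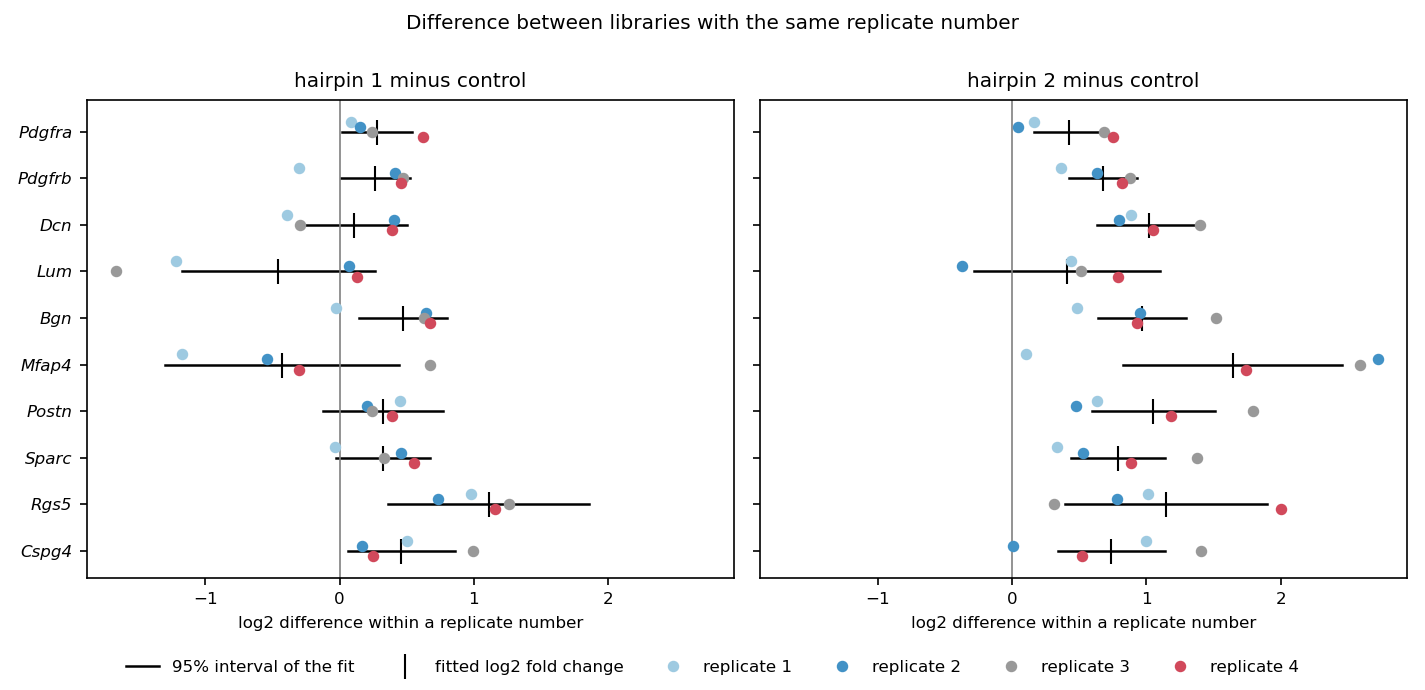
Log2 difference between libraries with the same replicate number (horizontal), hairpin 1 minus control on the left and hairpin 2 minus control on the right, for the 10 genes (vertical); points are replicate numbers, the vertical tick is the fitted log2 fold change and the line its 95% interval. With hairpin 2 every point but that of Lum in replicate 2 lies above 0.

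Over both hairpins, 2 of 10 genes rose against the control, beside 1.79% of all genes (0.84% higher). They were Bgn (0.72, SE 0.13, 95% interval 0.43 to 1.01; edgeR adjusted p = 0.0262) and Pdgfrb (0.47, SE 0.10, 95% interval 0.24 to 0.70; 0.0495). The other 8, from -0.02 for Lum to 1.13 for Rgs5, did not pass, with edgeR adjusted p from 0.0728 for Sparc to 0.981 for Lum. This comparison shares its control and hairpin libraries with those above. Pdgfra, Postn, Rgs5 and Cspg4 were higher in 8 of 8 same-number pairs, as were 3.69% of all genes, although their fitted values did not pass.

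The call of Bgn held in 6 of the 12 fits that left out 1 library and that of Pdgfrb in 4. Bgn missed without control replicate 2, 3 or 4 or hairpin 1 replicate 2, 3 or 4, with log2 fold changes of 0.61 to 0.74 and edgeR adjusted p = 0.0521 to 0.0969. Pdgfrb missed without the same 6 libraries and without hairpin 2 replicate 1 or 4, with 0.40 to 0.48 and edgeR adjusted p = 0.0835 to 0.181. Pdgfrb also missed with DESeq2's size factors in edgeR (0.47; edgeR adjusted p = 0.0505), and both genes missed when the hairpins were fitted as 1 group (Bgn 0.134, Pdgfrb 0.210). In the other direction, Postn (edgeR adjusted p = 0.0191), Sparc (0.0230) and Rgs5 (0.0350) passed without hairpin 2 replicate 3. Postn (0.0467) and Cspg4 (0.0340) passed without hairpin 2 replicate 2, and Cspg4 (0.0460) without control replicate 2 (all edgeR adjusted p). With replicate 4 left out of all groups 0 of 10 passed, beside 0.183% of all genes, and 7 of 10 had an unadjusted p under 0.05, beside 14.5%.

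Other genes of the stromal lists rose with hairpin 2, as did 2.83% of all genes. Of 19 further fibroblast markers tested, 4 rose with hairpin 2: Pcolce, which enhances collagen processing (0.66), Col14a1, a fibril-associated collagen (1.05), Col6a3, a microfibrillar collagen (0.67), and Fbln1, a basement membrane and elastic fibre protein (0.78). The list's median was 0.63. With hairpin 1, 0 of 19 passed by edgeR, beside 0.728% of all genes, and 5 had an unadjusted p under 0.05, beside 12.8%. Over both hairpins 1 of 19 passed, Col14a1 (1.07, SE 0.20; edgeR adjusted p = 0.0303), beside 1.79% of all genes. The fibrillar collagen Col1a1 was at 0.63 with hairpin 2 (SE 0.32; edgeR adjusted p = 0.268).

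Of 12 further pericyte markers tested, 1 rose with hairpin 2, beside 2.83% of all genes. It was Rgs4, a regulator of G protein signalling (1.41, SE 0.31; edgeR adjusted p = 0.0291). The median over the list was 0.42. Of 6 further small leucine-rich proteoglycans tested, Prelp rose with hairpin 2 (0.40, SE 0.06; edgeR adjusted p = 0.00821) and over both hairpins (0.28). Aspn was higher with hairpin 2 than with hairpin 1 (1.31, SE 0.21; edgeR adjusted p = 0.0112). Of 13 further matricellular genes, Fstl1 (0.97) and the thrombospondin gene Thbs2 (0.74) rose with hairpin 2.

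Contractile genes, which smooth muscle, pericytes, activated fibroblasts and myoepithelium share, rose with hairpin 2 in 6 of 10 cases, beside 2.83% of all genes. Their median was 1.04. The 4 of smallest p were Cnn1 (2.49), Myh11 (2.03), Tagln (1.47) and Acta2 (1.14), which encode calponin, smooth muscle myosin, transgelin and smooth muscle actin. The study's title names this programme, so the list is not independent evidence of its direction. Its replicate 4 libraries did not stand above the others for any of the 10 genes.

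Among markers of other cell types, 1 endothelial gene and some epithelial genes passed with hairpin 2, beside 5.76% of all genes. Of 12 endothelial markers tested, Erg rose (0.87, SE 0.19; edgeR adjusted p = 0.0260). Of 12 macrophage, 9 lymphocyte, 3 adipocyte and 6 Schwann cell markers tested, 0 passed by edgeR. An unadjusted p under 0.05 was reached by 0, 0, 1 and 1 of them, beside 22.6% of all genes. The medians of these lists were -0.48, -0.90, 0.35 and -0.11. Of 10 basal markers, Cdh3 (1.11), Jag2 (0.79) and Trp63 (0.56) rose, and of 10 luminal markers Ehf rose (0.53) and Epcam fell by 0.34 on the log2 scale.

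The genes whose pattern was most like that of Pdgfra over the 12 libraries, by Pearson correlation of log2 CPM, were Dact1 (0.991), Loxl1 (0.989), Snx9 (0.988) and Adamts2 (0.988). Loxl1, a lysyl oxidase of elastic fibres, read 76.4 to 132 CPM in replicate 4 and 6.05 to 14.6 in the other 9 libraries, and Adamts2, a procollagen protease, read 69.0 to 119 and 8.25 to 19.2. For Rgs5 the closest were Pofut1 (0.907), Gbf1 (0.882), Tbkbp1 (0.879) and Arfgap1 (0.879), whose replicate 4 values partly overlapped or adjoined those of the other libraries. Among the 10 genes, Rgs5 and Sparc were least alike (0.136), and Bgn followed Pdgfra (0.966) and Pdgfrb (0.954). These correlations describe 12 libraries that share replicate numbers and depth.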

How the data were processed

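RNA from 12 organoid libraries, 4 per group, was sequenced after oligo-dT selection, per the labels' protocols. The authors deposited 1 table of unnormalized counts for the 12 libraries. Tools named in the submitters' processing notes are FastQC 0.74, Trimmomatic 0.39 and DESeq2 1.34.0, with the build mm10; aligner, annotation and strand setting: not given in the sources used here. A row that names no gene held up to 0.0205% of a library and was left out. Coordinates and exon lengths come from GENCODE M21 (GRCm38).

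Genes were filtered with edgeR's filterByExpr (17024 kept, 8836 left out; at least 99.97% of counts kept), scaled with the trimmed mean of M-values (TMM) and tested with edgeR 4.0.16's quasi-likelihood test over all 12 libraries, with group and replicate number in the model, Benjamini-Hochberg adjustment over all genes and a threshold of 0.05. Log2 CPM used a prior count of 2. The fit was tested on simulated data. Alternatives included no replicate block, DESeq2 1.42.0, other filters and leaving out libraries. Replicate numbers come from the titles; deviations from the group means correlated at 0.855 to 0.916 between same-numbered libraries and at -0.807 to 0.727 between others, and the labels name no shared animal or day, so the pairing rests on the numbers and these correlations. Whether replicates are separate animals or cultures is not labelled, and p-values measure the spread between these libraries, which may be technical.

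The 10 genes, the 13 other lists (137 genes) and the tests were chosen with earlier results of these data known. Named were the 10 genes, Cldn7, every list gene past the threshold in a contrast described (the 4 of smallest p where more than 4 passed), and the 4 genes of most similar pattern to Pdgfra and to Rgs5 with a mean of at least 1 CPM. Col1a1, Col3a1, Pecam1, Ptprc, Krt18 and the pericyte, epithelial and PDGF genes given as levels or without a call were named after their values were seen.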

Additional observations from a re-analysis of the deposited data

Results flagged for a closer look

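In 14 of 30 sets of 4 libraries (10 genes in 3 groups), 1 library stood apart from the other 3, with a gap to its nearest neighbour of 0.842 to 0.982 of the set's whole range, above Dixon's 95% critical value for 4 samples. That is 46.7% of these sets, beside 7.87% of the 51072 such sets over all genes tested. The gaps were taken on CPM without a log transform. The critical value's rate of about 1 in 20 applies to normally distributed values, so it is not the chance rate here. How many sets stand apart on the log2 scale was not counted. The 30 sets reuse the same libraries, for genes whose levels correlate, and are not independent. It was replicate 4, as the highest value, in 14 of 14 sets, which holds for 3.44% of sets over all genes. Among the receptors, Pdgfra stood apart in the control (75.5 CPM), with hairpin 1 (116) and with hairpin 2 (127), and Pdgfrb likewise at 123, 169 and 218 CPM. Mfap4 did so in the 3 groups at 18.1, 14.7 and 60.7 CPM. Bgn did so with hairpin 1 (1367 CPM) and hairpin 2 (1631), Lum with hairpin 1 (87.2), Rgs5 with hairpin 2 (2.97) and Cspg4 in the control (28.8). Postn, Sparc and Dcn had no such library.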

How the results depend on the processing

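All p-values here are adjusted over the genes tested. The model without the replicate block called 1 gene in each of the 4 hairpin comparisons, beside 304 (both hairpins), 124 (hairpin 1), 981 (hairpin 2) and 585 (hairpin 2 against 1) with it, and none of the 10 genes. DESeq2 with the block called 1145, 607, 1855 and 1437 genes, among them 8, 1, 9 and 6 of the 10. Leaving out 1 library at a time gave 39 to 554 genes for both hairpins, 2 to 344 for hairpin 1, 344 to 1075 for hairpin 2, 165 to 673 between hairpins, 11857 to 13296 for the replicate number and 0 to 55 for the difference of the hairpin effect between replicate pairs, which was 3 with no filter. Leaving out replicate 1, 2, 3 or 4 of all groups gave 26, 198, 151 and 30 genes for both hairpins, 2, 1, 81 and 6 for hairpin 1, and 66, 198, 282 and 158 between hairpins. For hairpin 2, leaving out replicate 1, 2, 3 or 4 gave 212, 826, 442 and 185 genes, among them 5, 6, 4 and 0 of the 10. Replicates 1 and 2 alone gave 25, 9, 82 and 84 genes in the 4 comparisons, and replicates 3 and 4 alone 5, 1, 327 and 42. With the libraries compared alone, hairpin 1 gave 390 genes and hairpin 2 97, among them 1 and 2 of the 10. Both hairpins as 1 group gave 48. With no filter, 4 of the 10 passed for both hairpins (Postn and Sparc added) and 8 for hairpin 2 (Pdgfra added). The cause of these shifts was not tested. Signs of values that did not pass turned in some fits. Lum over both hairpins (-0.02) was 0.31 without the replicate block, 0.096 and 0.054 without replicate 1 or 3 of all groups, 0.21 in replicates 3 and 4, and 0.034 with both hairpins as 1 group. Dcn with hairpin 1 was -0.028 without replicate 4. Between hairpins, Rgs5 was -0.34 without replicate 4 and -0.0046 with the groups compared alone, and Pdgfra -0.020 in replicates 1 and 2. With 1 library left out, Lum over both hairpins ran from -0.24 to 0.11, Dcn with hairpin 1 from -0.054 to 0.25, Mfap4 with hairpin 1 from -0.66 to 0.090 and Rgs5 between hairpins from -0.35 to 0.34. The difference of the hairpin effect between replicate pairs then ran from -0.074 to 0.50 for Dcn, -0.28 to 0.86 for Lum, -0.60 to 1.71 for Mfap4, -0.15 to 0.78 for Rgs5 and -0.032 to 0.78 for Cspg4. Rgs5 was not tested under the stricter filter.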
